A study of Homo sapiens with 4 samples.

Results

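The liver X receptor (LXR) axis and the cholesterol efflux genes are followed here in NB4 cells and in an arsenic trioxide (ATO) resistant line derived from them. The 8 genes are ABCA1, ABCG1, NR1H2, NR1H3, MYLIP, SCARB1, APOE and APOC1, out of 30811 distinct gene names on the array. They were chosen by the log2 difference between the lines, in which ABCA1 had been seen to be lower in the resistant line, and the other members were added by name. Every probe that carries 1 of these names was used, 14 in all. Since that comparison chose the genes, their values are given as a description, with no p-value. Counts of these probes among those called stand only beside the counts over the array, and nothing is read from them.

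NB4 is an established human acute promyelocytic leukemia (APL) cell line that carries PML-RARA, and ATO is a drug used to treat APL. The naive group was parental NB4 without resistance to ATO. The resistant group was a clone raised in-house, written as NB4-VM-AsR1 in the labels and as NB4-EV-AsR1 in the methods, here taken for the same clone. Both lines were grown in RPMI with fetal bovine serum, and the resistant cells had been kept without ATO for 1 week. For each line RNA came from 2 independent flasks, and each of the 4 Cy3-labeled samples was run on its own Agilent human array in 1 color. As the resistant line is a clone, whatever sets it apart from parental NB4 for another reason cannot be told apart from resistance. All 4 arrays lay on 1 slide, the naive flasks in the first positions and the resistant flasks in the last, so position and line cannot be told apart either.

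LXR-alpha, encoded by NR1H3, and LXR-beta, encoded by NR1H2, are nuclear receptors that bind oxysterols, oxidized forms of cholesterol, and act on DNA as partners of the retinoid X receptors. When sterols are abundant they switch on genes that move cholesterol out of the cell. ABCA1 loads cholesterol and phospholipid onto lipid-poor apolipoproteins, ABCG1 passes cholesterol to formed HDL particles, MYLIP is a ubiquitin ligase that marks lipoprotein receptors for breakdown, and APOE and APOC1 are lipoprotein proteins. SCARB1 is the HDL receptor SR-BI, which exchanges cholesterol with HDL in either direction. The pathway is best known from macrophages and liver.

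ABCA1 is the gene on which the results turn, so its promoter and the start of each of its probes are shown. The promoter is the RefSeq sequence of the 250 bases before the transcription start, chr9:104928156-104928405 on the minus strand of GRCh38.p14. The capitals mark, in order, the E-box CACGTG, an imperfect direct repeat of the nuclear receptor half-site, and the TATA box TATAAA.
ABCA1 promoter: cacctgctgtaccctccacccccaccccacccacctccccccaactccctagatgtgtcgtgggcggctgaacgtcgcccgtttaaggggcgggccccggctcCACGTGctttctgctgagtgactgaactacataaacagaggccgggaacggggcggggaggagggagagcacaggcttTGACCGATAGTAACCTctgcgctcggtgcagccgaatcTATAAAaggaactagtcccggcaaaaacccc
The repeat lies 69 to 54 bases before the start and reads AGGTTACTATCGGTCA on the other strand. It differs by 2 bases from the DR4 element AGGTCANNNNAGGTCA, the arrangement with 4 bases between half-sites that LXR and its partner are known to bind. A match with at most 2 mismatches on either strand was found in 2.03% of 35116 promoter windows of the same length, the E-box in 6.34% and the TATA box, read as transcribed, in 6.8%. The E-box began 147 and the TATA box 31 bases before the start. The table of promoters held 6 of the 8 genes in 11 windows, and the 10 windows of NR1H2, NR1H3, MYLIP, APOE and APOC1 held none of these 3 motifs, which says nothing about the rest of these genes. ABCG1 and SCARB1 were not in the table. The arrays do not measure binding at any of these elements.

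The ABCA1 probes lie at chr9:107543704-107543763 (A_24_P235429, from position 9931 of the transcript) and chr9:107546373-107546432 (A_23_P216649, from position 7262) of hg19, the build of the probe annotation, on the minus strand. Their opening bases are given because the 2 probes do not overlap and so measure the transcript at separate places.
ABCA1 A_24_P235429: ccaaagagccatgtgtcatgtaatactgaa
ABCA1 A_23_P216649: caaaattccattacaggggcagtgcctttg

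Each array held 45015 spots for 41000 probes, and 27921 to 28243 probes per array were well above background. Values are log2 processed signals minus the 75th percentile of the array, so that 0 is the 75th percentile and 1 unit is a doubling. The SD of the difference between flasks over all probes tested was 0.71 in the naive pair and 0.37 in the resistant pair. Tests took in the probes that stood well above background in both flasks of the naive line, the resistant line or both, and a probe was called changed by limma at a Benjamini-Hochberg adjusted p below 0.05 with a change of at least 2-fold. By this rule 1486 of 28220 probes were called (5.27%), of which 649 were higher in the resistant line (2.30%) and 837 lower (2.97%). The smallest p of an exact two-sided permutation test with 2 flasks per line is 0.333, so no single gene could pass a threshold of 0.05 in such a test. Of 7 promyelocyte genes, 6 were well above background in all 4 flasks and ELANE in both resistant flasks but only 1 naive flask, and 6 of 8 stromal and endothelial genes were above background in none.

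Of the 14 probes, 12 probes of 7 genes were tested, and the 2 APOC1 probes were too dim. The 2 ABCA1 probes were among those called, both lower in the resistant line, which restates the choice of the genes and adds no support. In 7 of the 12 tested probes both resistant flasks lay below both naive flasks, in 2 both lay above, and 3 overlapped. Such separation in either direction was common on these arrays, with 28.2% of all probes tested lower and 24.7% higher, or 53.0% in all. The median change over the 12 probes was -0.45, beside -0.02 over all probes tested. For ABCA1, ABCG1, NR1H2, MYLIP and SCARB1 every probe had a lower mean in the resistant line, and for NR1H3 and APOE the mean was higher.

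**Figure D1:**
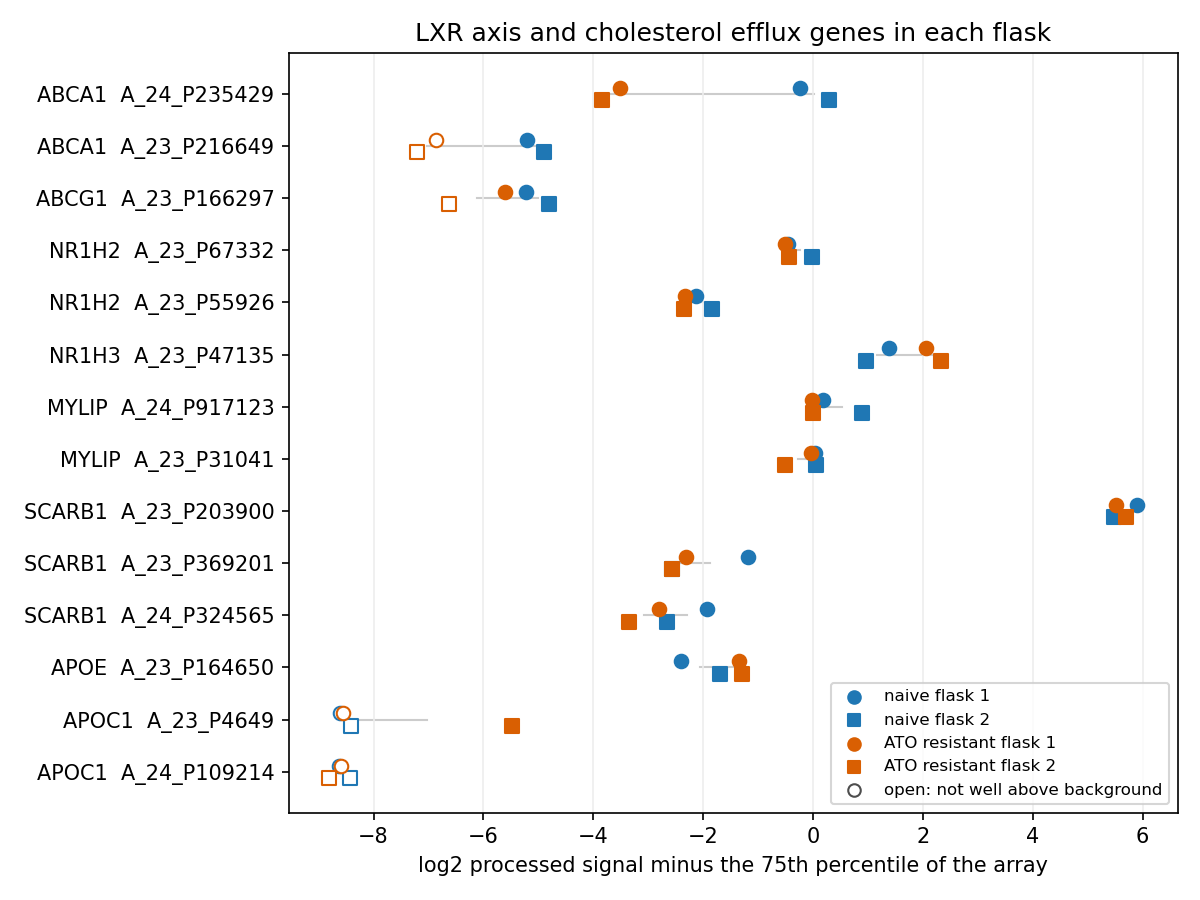
Log2 processed signal relative to the 75th percentile of the array (horizontal axis) for the 14 probes of the 8 genes, with 1 point per flask, naive in blue and ATO resistant in orange, circles for flask 1 and squares for flask 2. Grey lines join the means of the lines, open symbols are not well above background, and the naive flask 2 of SCARB1 A_23_P369201 (-2.57) lies behind the resistant flask 2 (-2.56). The bright ABCA1 probe shows the widest gap between the lines among the probes that are above background in all 4 flasks.

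ABCA1, the transporter that starts HDL formation, was much lower in the resistant line. The brighter probe read -0.23 and 0.28 in the naive flasks and -3.52 and -3.84 in the resistant flasks. As processed signals these were 919 and 1093 against 91.5 and 59.0, all 4 well above background, so that the transcript was still measured in the resistant cells. The means were 0.03 ± 0.36 and -3.68 ± 0.23 (SD, n = 2 flasks), a log2 change of -3.70, or 13.0-fold lower. The gap between the lines was several times the gap between flasks, and the lines did not come near each other. As this gap chose the gene, its size is a description and no support. Among 14666 named genes, each by its brightest tested probe, 158 had a lower change. In a whole culture, fewer cells with the transcript and less RNA per cell cannot be told apart. With the normexp background correction the change was -2.30, and with that correction no probe on the array was called.

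The dimmer ABCA1 probe read -5.21 and -4.90 in the naive flasks and -6.86 and -7.21 in the resistant flasks, where it was not well above background. Its means were -5.05 ± 0.22 and -7.03 ± 0.24 (SD, n = 2), which gives a bound of at least 2.64-fold lower, against the dimmest signal that still counts as above background. So the 2 probes had the same direction, and the dim probe had less room above background than the bright one. The normexp correction turned its change to 0.099, beside a shift of 0.149 that this correction gave to the median of all probes.

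ABCG1, the partner transporter that lipidates HDL further, was measured near the lower limit. Its probe (chr21:43716784-43716843, hg19) read -5.23 and -4.80 in the naive flasks and -5.61 and -6.62 in the resistant flasks, of which only the first was well above background. Both resistant flasks were lower, but the resistant pair differed by about as much as the lines. The means were -5.02 ± 0.30 and -6.11 ± 0.71 (SD, n = 2), a change of -1.10 or 2.14-fold lower. The size of this change depended on how background was treated. It was 0.11 after the normexp correction, where the median of all probes was 0.13, and -0.13 when bright local backgrounds were also reset.

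The receptors themselves did not share the pattern of ABCA1. NR1H3, which encodes LXR-alpha, read 1.37 and 0.96 in the naive flasks and 2.06 and 2.33 in the resistant flasks (chr11:47290323-47290382, hg19). Both resistant flasks lay above both naive flasks, with means of 1.17 ± 0.29 and 2.19 ± 0.19 (SD, n = 2), a change of 1.03 or 2.04-fold higher. Over the alternatives tried the change ranged from 0.82 to 1.23. The NR1H3 probe was not called by limma. Over the array, both resistant flasks lay above both naive flasks in 24.7% of all probes tested. The mean of the receptor's transcript was thus higher in the flasks in which ABCA1 was lower, though by much less than ABCA1 differed.

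NR1H2, which encodes LXR-beta, lay close together in all flasks. Probe A_23_P67332 read -0.46 and -0.02 in the naive flasks and -0.51 and -0.44 in the resistant flasks, a change of -0.24 with overlap. Probe A_23_P55926 read -2.13 and -1.84 against -2.34 and -2.34, a change of -0.36. Both differences were smaller than the SD of 0.71 between the naive flasks over all probes.

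MYLIP, the ubiquitin ligase of the pathway, was slightly lower by both probes. Probe A_24_P917123 read 0.17 and 0.90 in the naive flasks and -0.03 and 0.0037 in the resistant flasks, a change of -0.55. The spread between the naive flasks was wider than this change. Probe A_23_P31041 read 0.03 and 0.06 against -0.04 and -0.52, a change of -0.32, and here it was the second resistant flask that made most of the difference.

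SCARB1, the HDL receptor, gave 3 readings that differed in size. Probe A_23_P203900, saturated on 1 array, read 5.90 and 5.48 in the naive flasks and 5.51 and 5.70 in the resistant flasks. The lines overlapped, with a change of -0.08 that had either sign over the alternatives (from -0.29 to 0.13). Probe A_23_P369201 read -1.18 and -2.57 against -2.30 and -2.56, a change of -0.56 that came from the first naive flask and turned to 0.14 without it. Probe A_24_P324565 read -1.94 and -2.66 against -2.80 and -3.35, a change of -0.78. The largest of these differences was in the probe for which the files give no genome position.

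APOE, which carries cholesterol out of macrophages, was printed 10 times on each array. The probe lies in the coding sequence at chr19:45412373-45412432 (hg19).
APOE A_23_P164650: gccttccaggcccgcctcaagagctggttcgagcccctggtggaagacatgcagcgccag
The naive flasks read -2.40 and -1.70 and the resistant flasks -1.34 and -1.29. The SD between spots was 0.031 and 0.036 in the naive flasks and 0.035 and 0.067 in the resistant flasks, and the naive flasks differed by 0.70. Spots on an array share its labeling and hybridization, so their SD leaves out those sources of error. The means were -2.05 ± 0.49 and -1.32 ± 0.04 (SD, n = 2), a change of 0.73 or 1.66-fold higher. It ranged from 0.38 to 1.08 over the alternatives.

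APOC1, the neighbor of APOE on chromosome 19, was not measurable as a difference. Its 2 probes (chr19:45422429-45422485 and chr19:45422436-45422495, hg19) overlap in 50 bases, in capitals, and are shown because they nevertheless disagreed in 1 flask.
APOC1 A_23_P4649: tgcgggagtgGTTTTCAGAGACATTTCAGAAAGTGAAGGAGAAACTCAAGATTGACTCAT
APOC1 A_24_P109214: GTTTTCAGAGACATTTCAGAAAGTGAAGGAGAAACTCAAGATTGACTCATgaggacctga
Probe A_23_P4649 read -8.62 and -8.41 in the naive flasks and -8.56 and -5.48 in the resistant flasks, and only the last was well above background, with a processed signal of 18.8 against 2.64 to 2.78 elsewhere. Probe A_24_P109214 read -8.63, -8.42, -8.60 and -8.80 in the same order and was never above background. A value in 1 flask that the overlapping probe did not show is not a difference between the lines.

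The genes whose pattern over the 4 arrays lay nearest to that of ABCA1, by Euclidean distance after each probe was centered on its own mean, were SPA17 (distance 0.182), IL15RA (0.182), ANTXR1 (0.208), APCDD1 (0.222) and RAB11FIP5 (0.237), out of 14239 genes. IL15RA, a chain of the interleukin 15 receptor, read -1.79 and -1.25 in the naive flasks and -5.28 and -5.42 in the resistant flasks. RAB11FIP5, a Rab11 effector in recycling endosomes, read -1.87 and -1.35 against -5.36 and -5.35. SPA17, ANTXR1 and APCDD1 were not above background in either resistant flask, so their distances rest in part on readings that were not above background.

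Around these genes, 152 further genes of sterol transport, uptake and synthesis were examined in 11 lists. All were on the array and 117 were tested. By the probe with the highest mean, 4 rose and 2 fell in the resistant line and 111 were not called. Over the array 6.15% of 14666 named genes were called, 2.87% higher and 3.28% lower. At an unadjusted limma p below 0.05 there were 5382 of 28220 probes over the array, and 26 of the 117 genes. The median change over the 117 genes was 0.19, beside -0.02 over all probes. The adjusted p-values below are limma's Benjamini-Hochberg values over all probes tested, each with 2 flasks per line.

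**Figure D2:**
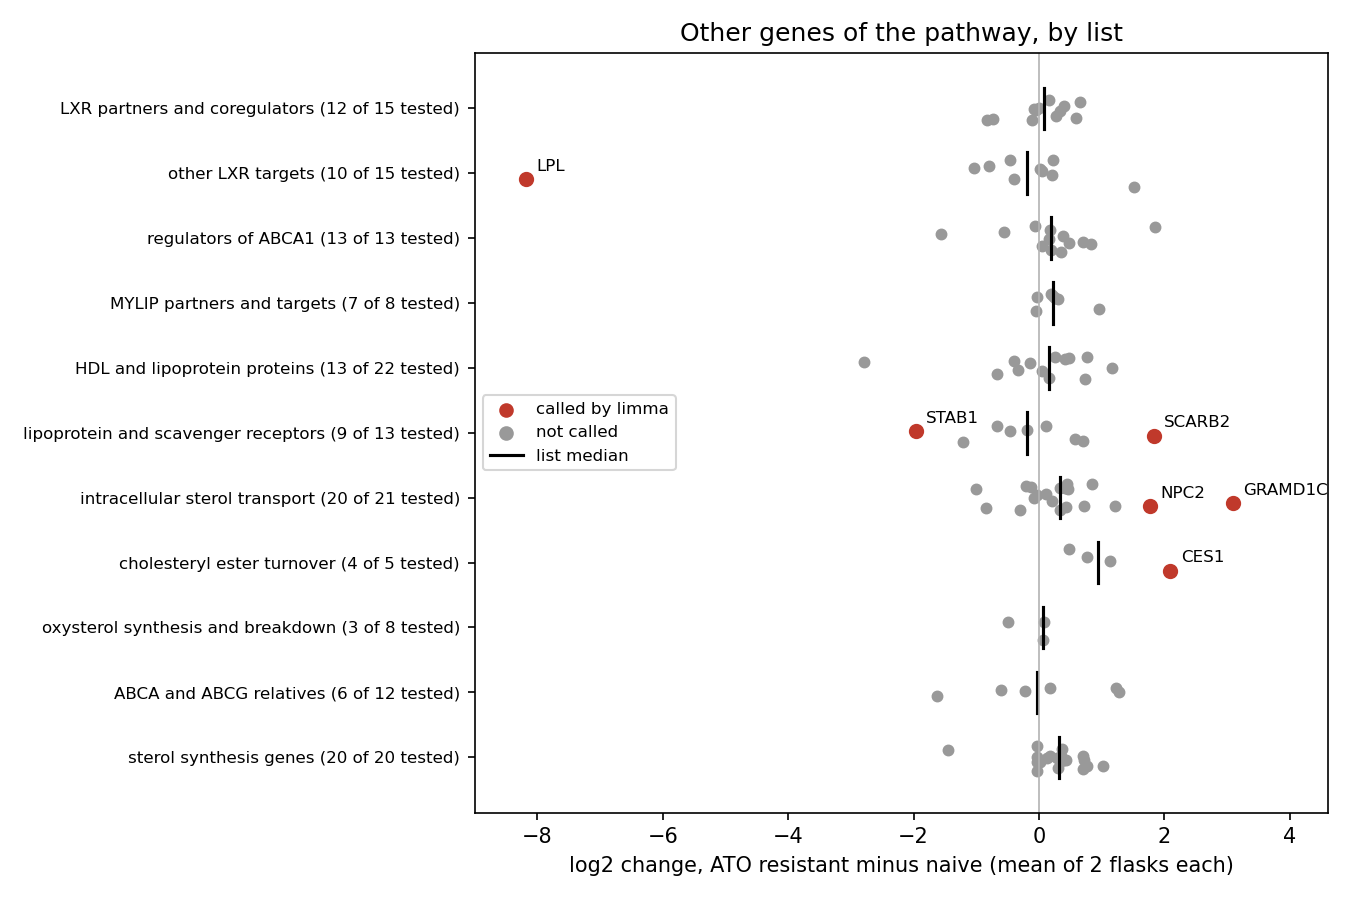
Log2 change, ATO resistant minus naive, from the means of 2 flasks each (horizontal axis), for the 117 tested genes of 11 lists, with 1 point per gene, red where limma called it and grey where it did not, and a black bar at the median of each list. LPL stands far to the left of all other genes, and the 4 genes that rose belong to the lists of receptors, sterol transport and ester turnover.

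Among the partners and other regulators no gene was called. Of 12 tested coregulators and partners of LXR, limma called 0, with 3 at an unadjusted p below 0.05. RXRA, the main partner, read 3.06 and 3.20 in the naive flasks and 2.25 and 2.36 in the resistant flasks, a change of -0.83 (adjusted p = 0.125). RXRB differed by 0.27. Of 13 regulators of ABCA1 transcription, limma called 0, with 3 at an unadjusted p below 0.05. PPARG, a lipid-sensing receptor upstream of LXR-alpha in macrophages, read -3.42 and -2.03 in the naive flasks and -0.81 and -0.93 in the resistant flasks, a change of 1.86 (adjusted p = 0.117). SREBF2, the regulator of sterol synthesis, differed by 0.19.

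Of 15 other LXR targets 10 were tested, and LPL was the only one called. LPL, the lipase that releases fatty acids from lipoproteins, read 0.51 and -0.70 in the naive flasks and -8.60 and -7.94 in the resistant flasks, where it was not above background. It was at least 81.7-fold lower, with a fitted change of -8.18 ± 0.48 (SE, adjusted p = 0.00142). With bright local backgrounds reset before normexp its change was -3.81, still called, and it was -2.74 and not called after plain normexp. The other targets named were not called. SREBF1, the regulator of fatty acid synthesis, differed by 0.21, the phospholipid transfer protein PLTP by 0.22 and the acyltransferase LPCAT3 by -0.80. For SREBF1 the sign turned when the second naive flask was left out.

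None of the targets or partners of MYLIP was called by limma (0 of 7 tested, and 0 at an unadjusted p below 0.05). LRP8, a lipoprotein receptor, differed by 0.23. VLDLR, a receptor for triglyceride-rich lipoproteins, read -0.27 in the first naive flask and 1.91 in the second, against 1.86 and 1.71 in the resistant flasks. Its change of 0.96 was thus that of 1 naive flask, and it became -0.13 without that flask.

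Among 9 tested receptors for lipoproteins and modified lipids, 1 rose and 1 fell. STAB1, a scavenger receptor of macrophages and sinusoidal endothelium, read 0.19 and 0.93 in the naive flasks and -1.33 and -1.48 in the resistant flasks, and fell by 1.97 ± 0.31 (SE, adjusted p = 0.031). The call was lost with quantile normalization (adjusted p = 0.053) and with no filter on dim probes (adjusted p = 0.0714). A second STAB1 probe was called as well, with a change of -1.37 (adjusted p = 0.0481). SCARB2, a relative of SCARB1 that resides in lysosomes, read -2.76 and -3.19 against -1.09 and -1.19, and rose by 1.83 ± 0.25 (SE, adjusted p = 0.0194). Its second probe had a change of 1.35 that was not called (adjusted p = 0.0583). CD36, a receptor for oxidized LDL, differed by 0.58 and was not called.

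The other genes that rose were in the lists of cholesterol handling inside the cell. NPC2, which carries cholesterol out of lysosomal lipid, read 2.62 and 2.01 in the naive flasks and 4.07 and 4.09 in the resistant flasks, and rose by 1.76 ± 0.29 (SE, adjusted p = 0.0326), a call lost with no filter on dim probes (adjusted p = 0.0728). NPC1, the membrane protein that receives cholesterol from NPC2, differed by -0.21 and was not called. GRAMD1C, a sterol transfer protein of the endoplasmic reticulum, read -7.85 and -7.08 against -4.25 and -4.49 and was at least 3.70-fold higher (adjusted p = 0.0079), a bound because it was not above background in the naive flasks. With bright local backgrounds reset its change was 0.67 and not called (adjusted p = 0.161), and with the plain normexp correction 0.65. A second GRAMD1C probe was above background in no flask and was not tested, so the rise rests on 1 dim probe. CES1, an esterase that can hydrolyze stored lipid esters, read 0.45 and -0.05 against 2.34 and 2.25, and rose by 2.09 ± 0.27 (SE, adjusted p = 0.0145). SOAT1, which makes cholesteryl esters, differed by 0.48 and was not called, and its other tested probes differed by 0.18 and -0.25. Without either resistant flask limma still called LPL and GRAMD1C, but not STAB1, SCARB2, NPC2 or CES1.

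The relatives of ABCA1 and ABCG1 held no called gene (0 of 6 tested by limma, 3 at an unadjusted p below 0.05). ABCA7, the closest relative of ABCA1, differed by 1.22 in the opposite direction to it (adjusted p = 0.0776), and ABCG2, a drug transporter, by -0.22, which turned to 0.20 after the normexp correction. Of 13 tested HDL and lipoprotein proteins limma called 0 (3 at an unadjusted p below 0.05), of 3 tested oxysterol genes 0 (0 unadjusted), and of 20 sterol synthesis genes 0 (1 unadjusted).

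The 2 naive flasks, in contrast, differed in sterol synthesis. In the second naive flask 19 of 20 of these genes were lower than in the first, with a median log2 difference of -1.40 (range -2.53 to 0.29), while the median of the difference between the resistant flasks was 0.04 and over all probes the naive flasks differed by a median of 0.05. In 15 of the 20 genes the mean of the resistant line lay between the 2 naive flasks. Of the other LXR targets 8 of 10 were lower in the second naive flask too, with a median difference of -0.87. Among these 8, CETP (-1.58) was above background in neither naive flask, and PLTP (-0.16) and MLXIPL (-0.18) differed little. ABCG5 (0.83) and CYP7A1 (0.65) were higher. ABCA1 was higher in the second naive flask, by 0.51 and 0.31 in its 2 probes, as were ABCG1 by 0.42 and APOE by 0.70. NR1H2 (0.44 and 0.29) and MYLIP (0.73 and 0.03) were higher there too. NR1H3 was lower, with a difference of -0.41, as was SCARB1 by every probe (-0.42, -1.40 and -0.72). With 1 flask on each side there is no test of these differences. For ABCA1 the gap between the naive flasks was 0.51 and the difference between the lines -3.70. That difference chose the gene, so its size beside the gap is no support. For MYLIP A_24_P917123, SCARB1, APOE and VLDLR the difference between naive flasks was of the size of, or larger than, that between the lines. Over the sterol synthesis genes the median change between the lines was 0.33, beside the median of -1.40 between the naive flasks.

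**Figure D3:**
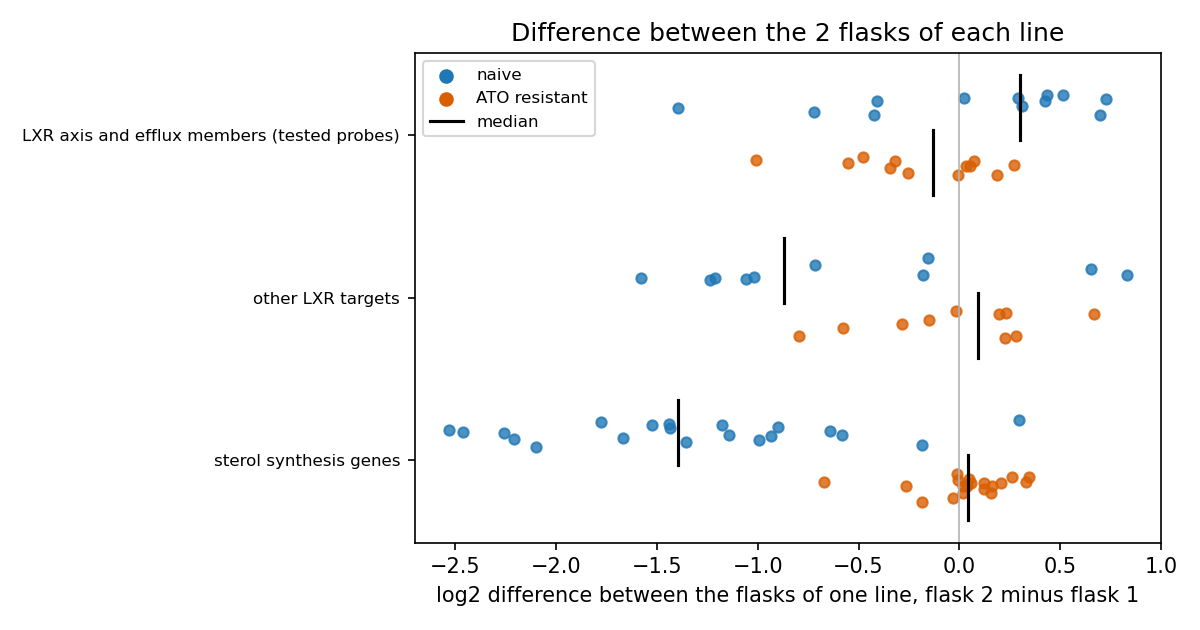
Log2 difference between the 2 flasks of a line, flask 2 minus flask 1 (horizontal axis), for the tested probes of the LXR axis and efflux genes, the other LXR targets and the sterol synthesis genes, naive in blue and ATO resistant in orange, with a black bar at the median. The naive differences of the sterol synthesis genes lie almost entirely below 0 (median -1.40), and those of the resistant pair gather near 0 (median 0.04).

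ABCA1, APOE, LPL and STAB1 are also genes of macrophages, so markers of monocytes and macrophages are given beside them. Of 10 markers 8 were on the array, 5 were tested and 1 was called. MARCO, a scavenger receptor, rose by 1.87 in the resistant line (adjusted p = 0.0128 by limma). CSF1R, the receptor for macrophage colony-stimulating factor, read 1.47 and 1.68 in the naive flasks and 2.70 and 2.90 in the resistant flasks and was not called, nor was VSIG4 with a change of 2.06. CD14 and C1QA, the other 2 tested, were lower in both resistant flasks, with changes of -0.50 and -0.77 that were not called. CD163, C1QB and C1QC were above background in no flask. The summed linear signal of the list, in units of the 75th percentile, was 2.97 and 3.44 in the naive flasks and 6.83 and 7.81 in the resistant flasks, and most of it in each flask came from CSF1R. Of the 7 promyelocyte markers ELANE rose by 2.49 and AZU1 by 1.17. The other 5 were not called, with changes from -0.62 (CEBPE) to 2.39 (PRTN3). The MPO probe was saturated on all 4 arrays and the CTSG probe on 2, so a difference in these could be hidden. Among 6 tested lymphocyte markers CD3D, a chain of the T cell receptor complex, was at least 167-fold lower (adjusted p = 0.00076) and the other 5 were not called. Among 4 tested erythroid and megakaryocyte markers ITGA2B, an integrin of platelets, fell by 2.40 (adjusted p = 0.0319) and the other 3 were not called. What part these differences have in the values of ABCA1 and the other genes was not tested.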

How the data were processed

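Gene expression was measured in 2 flasks of each line on 1-colour arrays. The authors read the scans with Feature Extraction 10.5.1.1 (probe annotation on hg19) and deposited its output. Its processed signal, from which background has been subtracted, is a linear intensity, as are the mean signal of a spot and its median background in the deposited files. The authors also deposited log2 values from GeneSpring GX after a 75th percentile shift.

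Log2 values were taken from the processed signal in R 4.3.3, without control and outlier spots, averaged over the spots of a probe and reduced by the 75th percentile. The values correlated with the deposited table with r of at least 0.9998 on each array. The comparison used limma 3.58.1 (lmFit, eBayes) over 28220 probes. The script was tested on simulated data. A gene outside the 8 was given by its tested probe with the highest mean. Where a probe was below background in a line, the bound sets the brighter mean against the higher of the probe's own signal and the lowest signal well above background. Current symbols came from a RefSeq table (GRCh38.p14), through accessions, for 26222 of 41000 probes. Promoters came from RefSeq and were searched over the bases before the start.

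The 8 genes, the 11 lists and the alternatives were chosen with earlier results of these data known. Named were all probes of the 8 genes, every called gene of the lists, further genes of the lists whether called or not (some are not reported here), the 5 genes nearest to ABCA1, and markers. The alternatives were the normexp correction with an offset of 50 (also with local backgrounds over 100 reset to the median of the array), quantile, median and scale normalization, other filters on dim probes, an intensity trend, the deposited table, the methods' t-test, blocking on flask number, leaving out each flask, and averaging the probes of a gene. Arrays have no read depth, and their number limits the precision. That the flasks were independent cultures is from the methods. The limma p-values set the difference between 1 clone and its parent line against the spread between cultures within a line. Limma draws that spread toward a value shared over all probes tested.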

Additional observations from a re-analysis of the deposited data

How the results depend on the processing

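The bright ABCA1 probe was lower in the resistant line under every alternative tried (log2 change from -3.96 to -2.30), which describes the values that chose the gene and does not support them. With the normexp correction 0 probes were called over the array (930 at an unadjusted p below 0.05), 0 of the probes of the 8 genes and 0 genes of the lists. With bright local backgrounds reset, 1189 probes over the array, 1 probe of the 8 genes and 11 genes of the lists were called. With probes above background on all 4 arrays these were 760 probes over the array and 1 probe of the 8 genes. An intensity trend gave 1561 probes over the array. This trend and the mean over all probes each gave 10 genes of the lists. The methods' t-test at an unadjusted p gave 1832 of 28053 probes over the array. It gave 12 genes of the lists (3 of them relatives of ABCA1 and ABCG1, and 0 in the other lists where limma called none). Adjusted by Benjamini-Hochberg it gave 0 probes over the array, 0 probes of the 8 genes and 0 genes of the lists. Leaving out 1 flask gave 727 to 4536 probes over the array, 1 to 5 probes of the 8 genes and 2 to 31 genes of the lists. Without naive flask 1 or 2, the lists held 31 or 23 called genes, and without either resistant flask 2. The normexp correction turned the dim ABCA1 probe to 0.099 and ABCG2 to 0.20. Over the flasks left out SREBF1 ranged from -0.15 to 0.56 and SREBF2 from -0.063 to 0.43, lowest without naive flask 2, and VLDLR from -0.13 to 2.05, lowest without naive flask 1. The cause was not tested. With the flask number as a replicate block, 1373 probes, 2 probes of the 8 genes and 7 genes of the lists were called, and the deviations of flasks with the same number correlated at 0.119 over 2 pairs, too few to show a pairing. A slide block was not run, since there was 1 slide. With 2 flasks per line and many of these genes near background, small differences cannot be resolved here.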
